A study of Mus musculus with 18 samples.

Results

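The 92 cytoplasmic ribosomal protein genes in a count table of 52636 mouse genes were described across normal skin, carcinogen-treated skin and papillomas of mice with and without Zfp36 in the epidermis. Members were the rows whose names start with Rpl or Rps followed by a digit, a or p. Names that hold -ps or -rs, which mark pseudogenes and related sequences, and the S6 kinase genes were left out, which removed 276 and 10 of the 378 matching rows. The rule used names only. The 92 rows held 77 single genes that encode the proteins of the ribosome, 46 of the large subunit (Rpl) and 31 of the small subunit (Rps), which are called core genes here. They also held 4 expressed paralogs (Rpl22l1, Rps27l, Rpl36al and Rpl7l1), 3 paralogs with hardly any reads (Rpl3l, Rpl39l and Rpl10l), 6 rows with names of retrotransposed or other copies (Rpl37rt, Rpl6l, Rps12l1, Rps27rt, Rps3a2 and Rps3a3), Rps4l, and Rps19bp1. Rps19bp1 encodes a protein that binds Rps19 and is not itself a part of the ribosome. The copies and Rps4l were set apart from the core after their values were seen.

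Ribosomal proteins are made in near equal amounts, assembled with ribosomal RNA in the nucleolus and exported as the small and the large subunit. Their mRNAs belong to the most abundant of a growing cell. Most begin with a C and a run of pyrimidines (the 5' terminal oligopyrimidine tract), through which mTOR and Larp1 control their translation, while Myc is known to raise transcription of the family. Zfp36 encodes tristetraprolin (TTP), which binds AU-rich elements of mRNAs and speeds their decay.

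The study asked how TTP of epidermal cells limits skin tumors. Zfp36 fl/fl mice and Zfp36 ΔEP mice, both on a C57BL/6 background, were compared, and the fl/fl mice were littermate controls without Cre. In ΔEP mice, written ΔK14 in the labels, floxed Zfp36 is deleted by Cre under the human keratin 14 promoter, so the deletion is limited to cells that use this promoter. Each genotype gave 3 groups: mock-treated skin, skin beside tumors that had received DMBA and repeated TPA but held no tumor (treated skin), and papillomas from the same protocol. DMBA is a mutagen given first, TPA a phorbol ester that promotes growth, and mice were 8 weeks old at the start. According to the methods, cells sorted as EpCAM+ and negative for CD45, CD140a and CD31 were used, while the labels name keratinocytes as the cell type and whole skin as source. Each group had 3 columns, but 2 of those of mock ΔEP skin (replicates 2 and 3) carried equal counts throughout the table and entered the analysis once. That left 17 libraries, and 2 in mock ΔEP skin.

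Total counts ran from 2808550 to 9617985 per library, with a median of 5567614. The RNA was total RNA, and rows of ribosomal RNA took 6.45% to 21.3% of the counts. These 359 rows were those annotated as ribosomal or mitochondrial ribosomal RNA, and any with listed names such as Gm42418. The share thus need not be of cytoplasmic ribosomal RNA alone. Zfp36 itself read 152 to 713 CPM (counts relative to library size, on the usual CPM scale, after TMM scaling over all 17 libraries) in the 9 fl/fl libraries and at most 38.4 CPM in the 8 ΔEP libraries, without overlap. Sums over 8 keratinocyte markers were 3821 to 33998 CPM. The labels do not say that replicates came from separate mice, so p-values measure only the spread between these samples.

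Of the 92 members, 67 had a promoter in the RefSeq table (GRCm38.p6). A pyrimidine run was searched on the transcribed strand as at least 5 bases of C or T, beginning with C within 5 bases of the annotated start. It was found in 30 of 67 members (44.8%), in 27 of 57 core genes (47.4%), and in 5718 of 27025 genes of the table (21.2%), each counted if any of its promoters held the run. Counted by promoter it was 32 of 79 for members (40.5%) and 6027 of 32851 for all (18.3%). A match is a description of these letters and no match says only that this window did not hold them. The starts of genes to which the results return are printed 5' to 3' from 30 bases before to 30 bases from the start, with the run in capitals. Rps6 and Rplp2 are core genes, Rps27 is shown with its copy Rps27rt and its paralog Rps27l, and Rpl22l1 and Rpl7l1 are paralogs with and without a run.
Rps6, chr4:86857338-86857397, minus strand: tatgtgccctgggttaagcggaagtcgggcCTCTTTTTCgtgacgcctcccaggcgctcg
Rplp2, chr7:141447621-141447680, plus strand: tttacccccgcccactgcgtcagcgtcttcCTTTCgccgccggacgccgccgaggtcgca
Rps27, chr3:90213619-90213678, minus strand: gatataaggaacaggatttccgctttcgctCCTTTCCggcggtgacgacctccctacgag
Rps27rt, chr9:114982710-114982769, minus strand: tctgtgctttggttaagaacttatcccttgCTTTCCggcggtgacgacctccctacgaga
Rps27l, chr9:66946056-66946115, plus strand: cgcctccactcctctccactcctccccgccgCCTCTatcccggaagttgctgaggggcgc
Rpl22l1, chr3:28805478-28805537, plus strand: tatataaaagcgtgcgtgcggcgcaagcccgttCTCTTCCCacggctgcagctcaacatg
Rpl7l1, chr17:46782627-46782686, minus strand: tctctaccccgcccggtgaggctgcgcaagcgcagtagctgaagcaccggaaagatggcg

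The members took the largest share of counts in papillomas. The share was 4.48%, 3.37% and 3.36% in mock fl/fl skin (mean 3.74% ± 0.643, SD, n = 3) and 4.58% and 4.71% in mock ΔEP skin (4.65% ± 0.0925, n = 2). It was 3.79%, 4.41% and 4.06% in treated fl/fl skin (4.09% ± 0.308, n = 3) and 4.76%, 3.28% and 4.54% in treated ΔEP skin (4.19% ± 0.799, n = 3). Papillomas of fl/fl mice gave 5.14%, 5.13% and 5.35% (5.21% ± 0.125, n = 3), above all skin libraries. Papillomas of ΔEP mice gave 5.25%, 4.46% and 4.83% (4.85% ± 0.392, n = 3), and the lowest of these lay inside the range of treated ΔEP skin. The share of ribosomal RNA rows sits beside these values, because those rows take counts from every mRNA. It was 6.45% to 10.3% in mock fl/fl, 15.1% and 20.4% in mock ΔEP, 8.95% to 14.1% in treated fl/fl, 9.25% to 11.9% in treated ΔEP, 9.06% to 21.3% in fl/fl papillomas and 9.75% to 11.9% in ΔEP papillomas. With those rows taken out of the totals, the group means were 4.10%, 5.66%, 4.62%, 4.69%, 6.19% and 5.43% in the same order, so mock ΔEP skin then stood above ΔEP papillomas. The order of mock ΔEP skin and ΔEP papillomas thus depended on the ribosomal RNA rows, whereas fl/fl papillomas were highest either way.

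On the TMM scale the 6 papilloma libraries stood above all 11 skin libraries. The median core gene read 437, 367 and 346 CPM in mock fl/fl, 510 and 568 CPM in mock ΔEP, and 369, 456 and 382 CPM in treated fl/fl skin. It read 470, 315 and 489 CPM in treated ΔEP skin, 874, 634 and 724 CPM in fl/fl papillomas, and 776, 698 and 781 CPM in ΔEP papillomas. Within the family the proportions moved little: a core gene's share of all member counts differed 1.16-fold to 1.82-fold between the lowest and the highest of the 17 libraries, with a median of 1.35-fold. The ratio of large to small subunit counts was 1.30 to 1.51. Fewer cells with high expression and less RNA per cell cannot be told apart in such bulk samples.

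**Figure D1:**
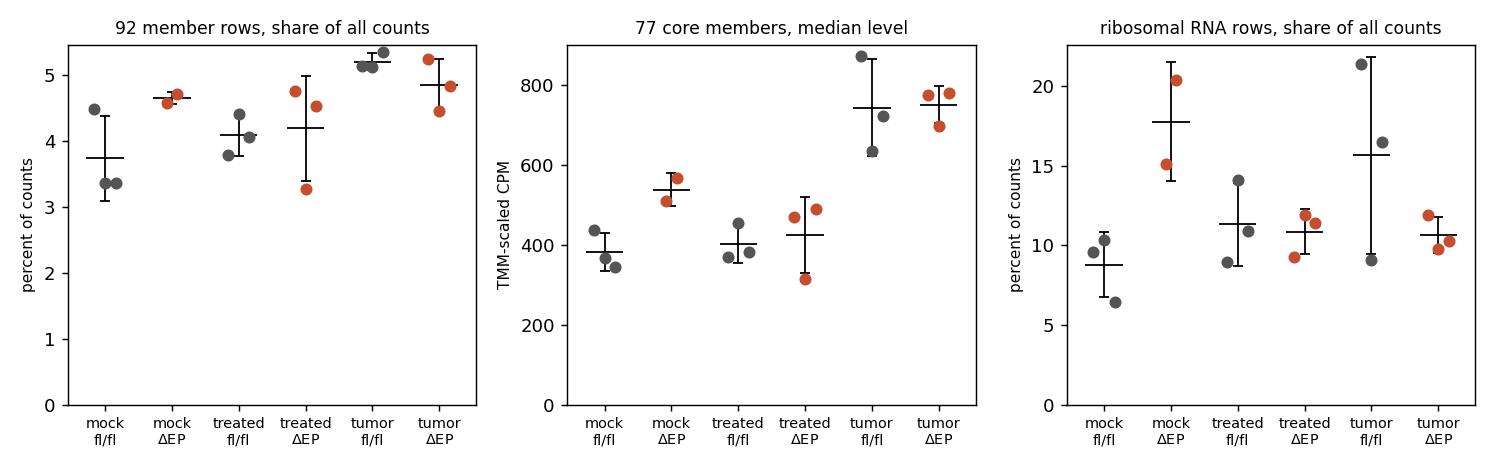
Share of all counts in the 92 members (percent), median CPM of the 77 core genes and share of counts in ribosomal RNA rows (percent) in the 6 groups, with each library as a point, the group mean as a bar and the SD as whiskers. The median core gene lies at 634 to 874 CPM in the 6 papilloma libraries and at 315 to 568 CPM in the 11 skin libraries.

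Levels between genes were ranked only per kilobase of the principal annotated transcript. The core genes ran from 84.5 to 1506 CPM per kb, with a median of 612 CPM per kb. The highest were Rplp1 (1506 CPM per kb), a stalk protein of the large subunit, Rps27 (1395), Rps4x (1247), Rps15 (1245) and Rpl23a (1186). The lowest core gene was Rps15a at 84.5 CPM per kb, whose principal transcript is 5179 bases long. Rpl18 (107), Rpl15 (161), Rpl27 (177) and Rpl22 (213) came next. The rank of Rps15a depends on that annotated length. Its median share of member counts was 0.948%, above Rpl18 (0.682%), Rpl15 (0.691%), Rpl27 (0.282%) and Rpl22 (0.933%). The lowest of all members were Rpl10l (0), Rpl39l (0.1), Rpl3l (0.2), Rps4l (6.2) and Rps3a3 (15.2). Rpl7l1 stood at 23.7 CPM per kb, Rpl36al at 121, Rps27l at 210 and Rpl22l1 at 335, so that all 4 expressed paralogs lay below the core median. The core genes lie on 19 chromosomes, with 14 on chromosome 7 and 4 on X.

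**Figure D2:**
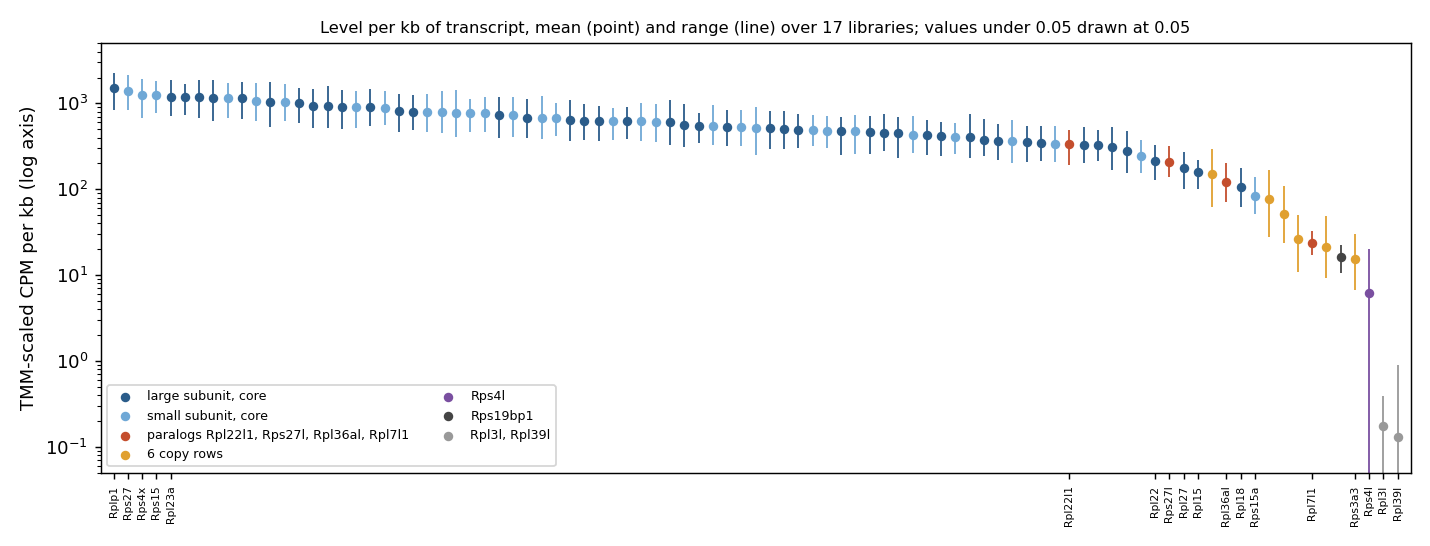
Level of each member in CPM per kb of its principal transcript on a log axis, as the mean over 17 libraries with the lowest and highest library as a line. Names are given for some of the members described in the text, and Rpl10l, which had no reads, is not drawn. Core genes lie between 84.5 and 1506 CPM per kb, and Rps4l and the copy rows lie at the lower end.

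In fl/fl mice, papillomas were compared with treated skin from the same protocol, and nearly the whole family was higher. Of 89 members tested with edgeR, 74 rose and 1 (Rps4l) fell at a Benjamini-Hochberg adjusted p under 0.05, where 12.5% of all genes rose and 12.6% fell. Among core genes 71 of 77 rose, and in all 77 the 3 papilloma libraries lay above the 3 treated libraries. For all members 82 of 89 lay above in this way, against 21.9% of all genes. The median member was 1.81-fold higher (log2 0.85), and the median of all genes lay at -0.0246 on the log2 scale. The smallest p was that of Rpl9, a large subunit protein (chr5:65388364-65391444, minus strand). It read 222, 260 and 259 CPM in treated skin and 550, 470 and 526 CPM in papillomas, which was 2.05-fold higher (log2 1.03 ± 0.17 SE, adjusted p = 0.0070). The next was Rpl36a (chrX:134585654-134588062, plus strand), with 150, 216 and 168 CPM against 475, 351 and 414 CPM (2.29-fold, log2 1.19 ± 0.21, adjusted p = 0.0076). Rpl35 rose 2.13-fold, from 162, 195 and 166 CPM to 451, 315 and 371 CPM. Rpl5 (1.97-fold) and Rps15a (2.01-fold, adjusted p = 0.010) closed the first 5. In each of these genes the groups did not overlap and the fold was near 2.

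Members with roles beyond the ribosome moved with the rest in fl/fl papillomas. Rpl5 and Rpl11, which with 5S rRNA can bind and inhibit Mdm2, rose by 0.98 ± 0.18 and 1.13 ± 0.23 on the log2 scale (adjusted p = 0.0091 and 0.013). Rpl11 went from 204, 232 and 206 CPM to 618, 359 and 453 CPM. Rps6, the substrate of the S6 kinases, went from 369, 437 and 384 CPM to 874, 667 and 724 CPM (1.87-fold, adjusted p = 0.014). Rpsa, which also serves as a laminin receptor, rose 1.72-fold (adjusted p = 0.022). The stalk proteins, which recruit translation factors, lay at the lower end. Rplp1 rose 1.61-fold (adjusted p = 0.045), while Rplp0 (1.53-fold, adjusted p = 0.076) and Rplp2 (1.48-fold, adjusted p = 0.080) did not pass. Rplp2 read 271, 383 and 339 CPM in treated skin and 591, 427 and 479 CPM in papillomas, so its groups still did not overlap. Rpl13, Rps19 and Rps20 also did not pass.

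The number of members called in fl/fl mice changed when single libraries were left out, while the median kept its direction. The number was 0, 25 and 10 without treated fl/fl replicate 1, 2 or 3, 19 without papilloma replicate 3, and 74 and 71 without papilloma replicate 1 or 2, with medians of 0.76 to 0.96 on the log2 scale. The share of all genes called in fits without 1 library is not given here or below. Such counts cannot tell a change of the members from a stricter or looser test of all genes. With library totals in place of TMM the median of all genes moved to -0.50, 669 genes were called higher and 3812 lower in place of 1915 and 1932, and 8 members were called higher. The members' median then was 0.35, which is 0.85 above that of all genes and compares with 0.88 under TMM. A change of scaling shifts all genes by nearly the same amount, so this gap could hardly change and is no test of the rise.

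In ΔEP mice the same comparison gave a smaller count and a smaller median. Of 89 members 49 rose and none fell, where 17.6% of all genes rose and 19.2% fell. DESeq2 called 63 members and 36.8% of all genes, and 77 members and 47.4% of all genes had an unadjusted p under 0.05 in edgeR. Core genes accounted for 48 of the calls, 31 of 46 of the large and 17 of 31 of the small subunit, and all 77 lay above treated skin without overlap. Over all members 81 of 89 did, against 28.4% of all genes. The median member was 1.53-fold higher (log2 0.62). Rpl11 went from 272, 190 and 294 CPM to 479, 440 and 517 CPM (log2 0.84 ± 0.19, adjusted p = 0.011) and Rpl35 from 222, 148 and 218 CPM to 382, 344 and 387 CPM (0.83 ± 0.19, adjusted p = 0.011). Rpl41, which encodes the shortest ribosomal protein, rose 1.80-fold and Rpl9 1.66-fold. Rps12 (1.73-fold, adjusted p = 0.014) completed the first 5.

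Rpsa was among the members farthest above the family in ΔEP papillomas. It read 925, 574 and 893 CPM in treated skin and 1430, 1430 and 1758 CPM in papillomas (1.82-fold, adjusted p = 0.017). Rps6 rose 1.65-fold (adjusted p = 0.024) and Rpl5 1.53-fold (adjusted p = 0.038). None of the stalk genes passed: Rplp0 was at 1.52-fold (adjusted p = 0.072), Rplp1 at 1.43-fold (0.089) and Rplp2 at 1.32-fold (0.16). The smallest change of a core gene was that of Rps28, with 169, 129 and 173 CPM against 198, 200 and 204 CPM (log2 0.27 ± 0.16, adjusted p = 0.23). With library totals alone Rplp2 and Rps28 turned to -0.0427 and -0.178 on the log2 scale. The count was 50, 7 and 64 without treated ΔEP replicate 1, 2 or 3 and 18, 29 and 2 without papilloma replicate 1, 2 or 3, with medians of 0.47 to 0.75. The share of all genes called is not given for these fits. With library totals alone no member was called, the median of all genes was -0.47 and that of the members 0.18, and 1362 genes were called higher and 5487 lower in place of 2690 and 2940. With the ribosomal RNA rows left out 31 members were called, and the share of all genes called there is not given.

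Set side by side, 48 members were called higher in papillomas of both genotypes and 26 in fl/fl alone. The 2 genotypes share no libraries here. The difference of the papilloma effect between them was tested directly as an interaction: no member passed, where 0.0118% of all genes did. Rps4l alone had an unadjusted p under 0.05 in edgeR (13.2% of all genes did) and was the only member that DESeq2 called (1.29% of all genes). The median interaction was -0.21 on the log2 scale.

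**Figure D3:**
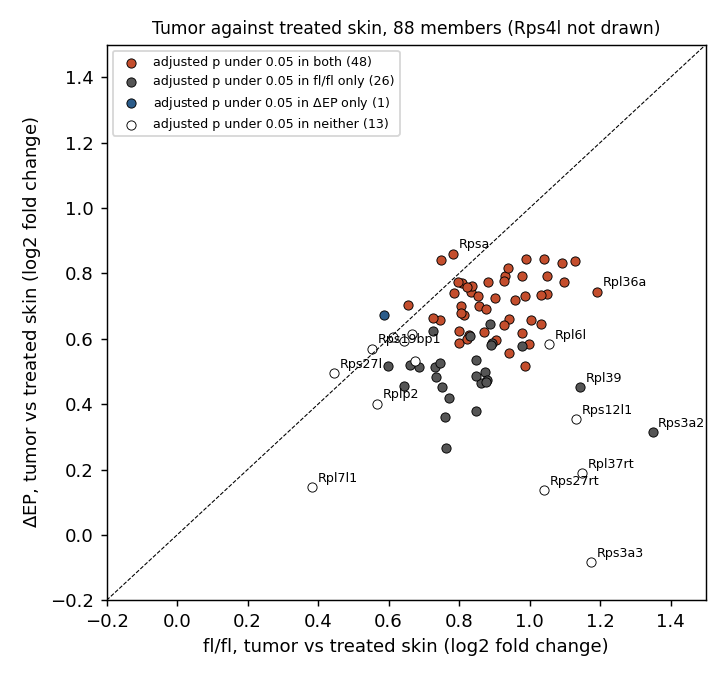
Log2 fold change of papilloma against treated skin in fl/fl mice (x axis) and in ΔEP mice (y axis) for 88 members, colored by the genotype in which the member passed an adjusted p of 0.05, with Rps4l not drawn. The 48 members called in both lie in the upper right, and 26 were called in fl/fl mice only.

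Against mock skin, papillomas gave the same direction in fl/fl mice, and fewer members passed the test. Of 89 members 80 lay above mock skin without overlap, against 15.5% of all genes, and the median member was 1.82-fold higher (log2 0.86). Rpl36a rose, from 186, 199 and 165 CPM to 475, 351 and 414 CPM (2.21-fold, log2 1.14 ± 0.24, adjusted p = 0.046), and Rps4l fell. These were the only 2 calls, where 2.22% of all genes rose and 1.88% fell. An unadjusted p under 0.05 was found for 81 members and 26.2% of all genes, and DESeq2 called 70 members and 16.1% of all genes. The count was 68 without mock fl/fl replicate 1 and 0 without any other library, again without the share of all genes. With library totals alone 1 member was called, the median of all genes was -0.42 and that of the members 0.47, and 266 genes were called higher and 968 lower in place of 342 and 290. Rpl41 and Rps2 lay farthest above the family beside Rpl36a, at log2 1.14 ± 0.31 and 1.14 ± 0.32 (adjusted p = 0.074 and 0.080). Rps6 was 1.93-fold (adjusted p = 0.082), Rpsa 1.92-fold (0.11), Rplp1 1.94-fold (0.077) and Rplp0 1.69-fold (0.14).

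In ΔEP mice papillomas and mock skin lay closer together. No member rose, where 7.13% of all genes did. One member, the copy Rps27rt, fell, where 7.27% of all genes did. In 53 of 89 members papillomas lay above both mock libraries, against 28.6% of all genes, and the median member was at log2 0.26. Members farthest above the family were Rpl36al (1.65-fold, adjusted p = 0.11), Rpsa (1.65-fold, 0.11) and Rpl10a (1.60-fold, 0.10). Rps6 was at 1.45-fold (0.17), Rpl5 at 1.35-fold (0.25), Rpl11 at 1.30-fold (0.31) and Rplp1 at 1.07-fold (0.84). The count was 9 and 7 without mock ΔEP replicate 1 or 2, where the single mock library left is assumed to vary like the papillomas, and 0 without any papilloma library. It was 3 with library totals alone, where the median of all genes was -0.30 and that of the members 0.03, and 868 genes were called higher and 1827 lower in place of 1072 and 1093.

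The tumor against mock difference was compared between genotypes as an interaction. No member passed, and no gene did (0%). An unadjusted p under 0.05 was found for 28 members and 8.18% of all genes in edgeR (1423). DESeq2 called 0 members and 0.161% of all genes. Without the low-count filter edgeR called Rps4l (adjusted p = 0.013) and Rps27rt (0.037). The median interaction was -0.58 on the log2 scale. Mock ΔEP skin had 2 libraries in this test.

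**Figure D4:**
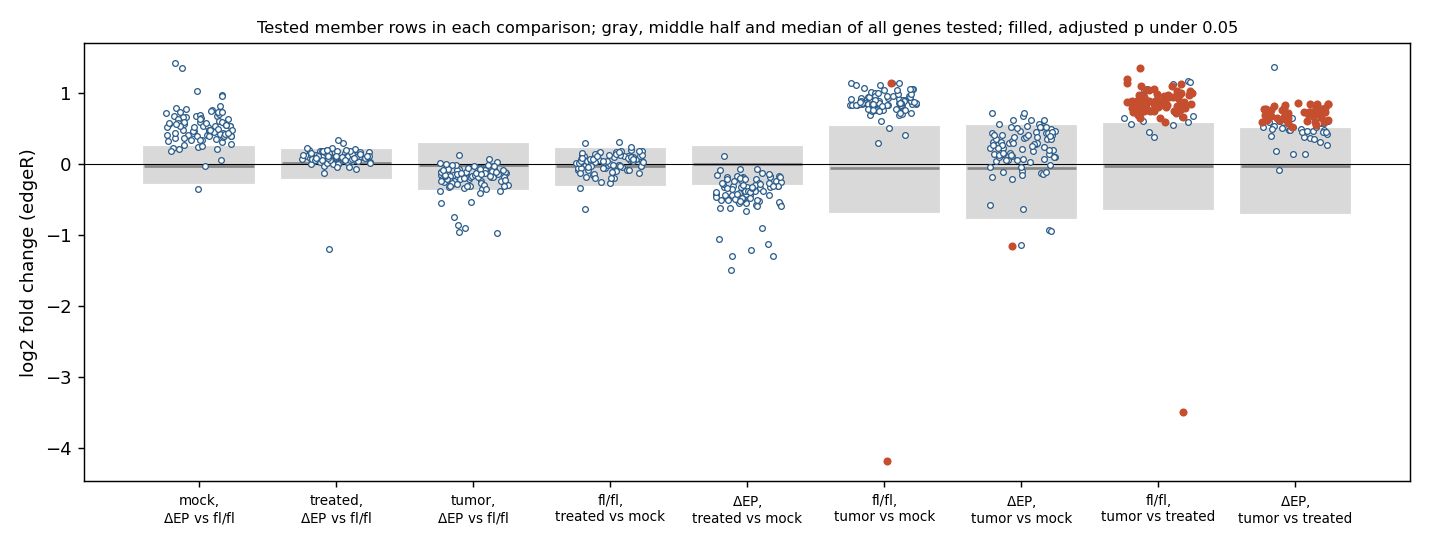
Log2 fold change of each member in 9 comparisons, with filled points for an adjusted p under 0.05 and, in gray, the median and interquartile range of all genes. The members lie above the middle of all genes in papillomas against treated skin in both genotypes, and no filled point appears in comparisons between genotypes.

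Between genotypes no member passed in any of the 3 tissues. In mock skin the median member was at log2 0.53 in ΔEP over fl/fl, where the median of all genes was -0.03, and 71 of 89 members lay above without overlap, against 6.97% of all genes. None was called by edgeR or DESeq2, while edgeR called no gene (0%) and DESeq2 0.0188% of all genes. An unadjusted p under 0.05 was found for 8 members and 1.59% of all genes. The members included Rps27rt, Rps29, Rps27, Rps21 and Rps10, with log2 values of 0.74 to 1.42. Rps27 read 324, 369 and 313 CPM in fl/fl and 495 and 624 CPM in ΔEP mock skin (1.67-fold). The higher family level of mock ΔEP skin ran beside ribosomal RNA shares of 15.1% and 20.4% and low total counts (3569609 and 2973405). The part of either in it was not tested. Leaving out 1 library at a time gave medians of 0.37 to 0.64.

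In treated skin no member was called, where 0.00616% of all genes were. The median member was at log2 0.10 in ΔEP over fl/fl. In edgeR 1 member had an unadjusted p under 0.05, where 5.55% of all genes did. DESeq2 called no member and 0.228% of all genes. Rps6 was at 0.09 ± 0.21, Rpsa at 0.05 ± 0.22 and Rplp0 at 0.00 ± 0.26 on the log2 scale, each with overlapping groups. In papillomas no member was called, where 0.0284% of all genes were. The median was -0.16, and only 4 of 88 members had a value above 0, against 48.3% of all genes, whose median was -0.0191. In edgeR 5 members had an unadjusted p under 0.05, where 14% of all genes did. DESeq2 called no member and 2.94% of all genes. Without fl/fl papilloma replicate 1, the library with 21.3% ribosomal RNA and the lowest total count, the median was -0.01 and again no member was called.

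Treatment without a tumor changed no member by the test. In fl/fl mice treated and mock skin had a median difference of 0.04 on the log2 scale, and no member or gene passed (0%). An unadjusted p under 0.05 was found there for 0 members and 913 genes (5.5%). In ΔEP mice the median was -0.38, 44 of 89 members lay below mock skin without overlap, against 8.3% of all genes, and again no member or gene passed (0%). There 7 members and 763 genes (4.8%) had an unadjusted p under 0.05. DESeq2 called no member in either genotype, where it called 0.777% of all genes in fl/fl and 0.384% in ΔEP mice.

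The expressed paralogs are genes with introns or 1 exon of their own that encode relatives of a core protein. None shared a stretch of 50 bases with its partner in the annotated transcripts, so reads of at least that length can be told apart. Rpl36al, nearly the same protein as Rpl36a, moved like a core gene. It read 89.5, 122 and 92.1 CPM in treated fl/fl skin and 261, 172 and 205 CPM in fl/fl papillomas (2.07-fold, adjusted p = 0.013), and rose 1.73-fold in ΔEP mice (adjusted p = 0.015). Rpl22l1, the paralog of Rpl22, rose 1.56-fold in fl/fl mice (adjusted p = 0.046), where Rpl22 rose 1.92-fold (0.019). In ΔEP mice Rpl22l1 read 213, 139 and 156 CPM in treated skin and 273, 213 and 256 CPM in papillomas, with groups that overlapped at 213 CPM (1.37-fold, adjusted p = 0.12), while Rpl22 rose 1.47-fold (0.043). Among libraries Rpl22l1 reached 229 CPM in 1 mock ΔEP library and 129 CPM in the other.

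Rps27l and Rpl7l1 did not pass the test in either genotype. Rps27l, a p53 target in other settings, read 69.4, 100 and 85.6 CPM in treated fl/fl skin and 137, 91.8 and 125 CPM in papillomas, which overlapped (1.36-fold, adjusted p = 0.17). Rps27 rose 1.84-fold there (adjusted p = 0.025). In ΔEP mice Rps27l was at 1.41-fold (adjusted p = 0.077) and Rps27 at 1.38-fold (0.10). Rpl7l1, which works in ribosome assembly, was the expressed paralog with the smallest difference: 53.7, 54.9 and 50 CPM against 83.5, 60.9 and 67.3 CPM in fl/fl mice (1.30-fold, adjusted p = 0.15) and 1.11-fold in ΔEP mice (0.57). Rpl7 rose 1.78-fold in fl/fl mice (adjusted p = 0.020) and was at 1.53-fold in ΔEP mice (0.059). With library totals alone Rps27l and Rpl7l1 turned to -0.0561 and -0.12 on the log2 scale in fl/fl mice, and Rpl7l1 to -0.30 in ΔEP mice, so their direction depended on the scaling. The difference between a paralog and its partner was not tested. Against mock skin none of the 4 paralogs passed in either genotype, and none passed between genotypes.

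Rpl3l, Rpl39l and Rpl10l were at the floor of the measurement. Rpl3l, a muscle form of Rpl3, had 24 counts in 13 of 17 libraries, Rpl39l, a testis form of Rpl39, had 10 counts in 5 libraries, and Rpl10l, a testis form of Rpl10, had 0 counts. Their partners rose in fl/fl papillomas: Rpl3 by log2 0.88 (adjusted p = 0.016), Rpl39 by 1.14 (0.018) and Rpl10 by 0.81 (0.020). In ΔEP papillomas Rpl3 (0.77, adjusted p = 0.017) and Rpl10 (0.77, 0.018) rose, and Rpl39 was at 0.45 (0.084).

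Rps4l stood apart from every other member. It is annotated as a transcribed processed pseudogene (chr6:148354656-148355598, plus strand), and none of its 894 windows of 50 bases occurred in Rps4x, the core gene on X. In skin it read 7.32 to 15.2 CPM in mock fl/fl, 8.09 and 7.90 CPM in mock ΔEP, 8.87, 3.93 and 6.25 CPM in treated fl/fl and 2.5, 2.99 and 3.03 CPM in treated ΔEP. Papillomas of fl/fl mice gave 0.500, 0.913 and 0 CPM, with 7 counts in all 3 libraries together. There it fell by 3.50 ± 0.69 on the log2 scale against treated skin (adjusted p = 0.012) and fell by 4.19 ± 0.77 against mock skin (adjusted p = 0.032). Papillomas of ΔEP mice gave 0.446, 4.16 and 19.1 CPM, a spread that covered all skin libraries, and the difference from treated skin was 1.36 ± 0.88 (adjusted p = 0.25), with -0.33 to 1.95 when each library was left out and the lowest without ΔEP papilloma replicate 3. The fall against treated skin lost its call without treated fl/fl replicate 1, and that against mock skin kept it only without mock replicate 1. The interaction was 4.88 ± 1.36 with an adjusted p of 0.21, so it did not pass in edgeR. Rps4l was called there by DESeq2 (adjusted p = 0.031) and by edgeR without the low-count filter (log2 4.95, adjusted p = 1.08e-08). Rps4x rose 1.85-fold in fl/fl papillomas (adjusted p = 0.019) and stood at 1.57-fold in ΔEP papillomas (adjusted p = 0.050).

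The 6 copy rows resemble core genes closely enough to share their reads. Of the 50-base windows of each copy, 91.1% occurred in the partner for Rps27rt, 100% for Rps12l1, 76.7% for Rps3a2, 61.8% for Rpl6l, 49.6% for Rps3a3 and 38.7% for Rpl37rt, so how the authors' counting split such reads makes these values uncertain. Per 1000 core counts the copies held 2.38 to 6.84 counts. The 6 highest libraries, with 4.33 to 6.84, were both of mock ΔEP skin, mock fl/fl replicate 2, treated fl/fl replicate 2 and fl/fl papilloma replicates 1 and 3, and the other 11 held 2.38 to 3.65. In the same 6 libraries, rows with pseudogene names held 48.4 to 74.2 counts per 1000 core counts, against 24.3 to 36.8 in the others. These 6 included the 5 libraries with most ribosomal RNA (14.1% to 21.3% of counts), and the remaining 1, mock fl/fl replicate 2, had 10.3%. The same 5 libraries had the lowest total counts (2808550 to 4124233), and mock fl/fl replicate 2 had 4798903. Ribosomal RNA content and depth thus cannot be told apart in these 5 libraries. Among libraries with fewer copy counts, treated ΔEP replicate 1 had 4786594 total counts and held 3.25 per 1000. Treated ΔEP replicate 2 and ΔEP papilloma replicate 1 each had 11.9% ribosomal RNA and held 3.65 and 2.92. The part of ribosomal RNA or depth in the copy rows was not tested. Rps27rt read 107 and 99.5 CPM in mock ΔEP skin and 53.9, 39.6 and 54.3 CPM in ΔEP papillomas (0.45-fold, log2 -1.16 ± 0.26, adjusted p = 0.033), while Rps27 was at 0.97-fold. This call was lost without any of the 3 papilloma libraries. Rps3a2 was called higher in fl/fl papillomas than in treated skin (7.36, 18.6 and 7.95 CPM against 39.0, 20.5 and 27.4 CPM, 2.55-fold, adjusted p = 0.045), a call lost without either treated fl/fl replicate 1 or 3 or papilloma replicate 1 or 3, and Rps3a1, its partner, rose 1.98-fold. In ΔEP papillomas against mock skin Rps3a3 was at 0.46-fold (adjusted p = 0.081) and Rps12l1 at 0.52-fold (0.062). Neither passed in any tumor comparison, and they ranged from 5.30 to 24.0 CPM and from 11.2 to 66.3 CPM over all libraries.

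**Figure D5:**
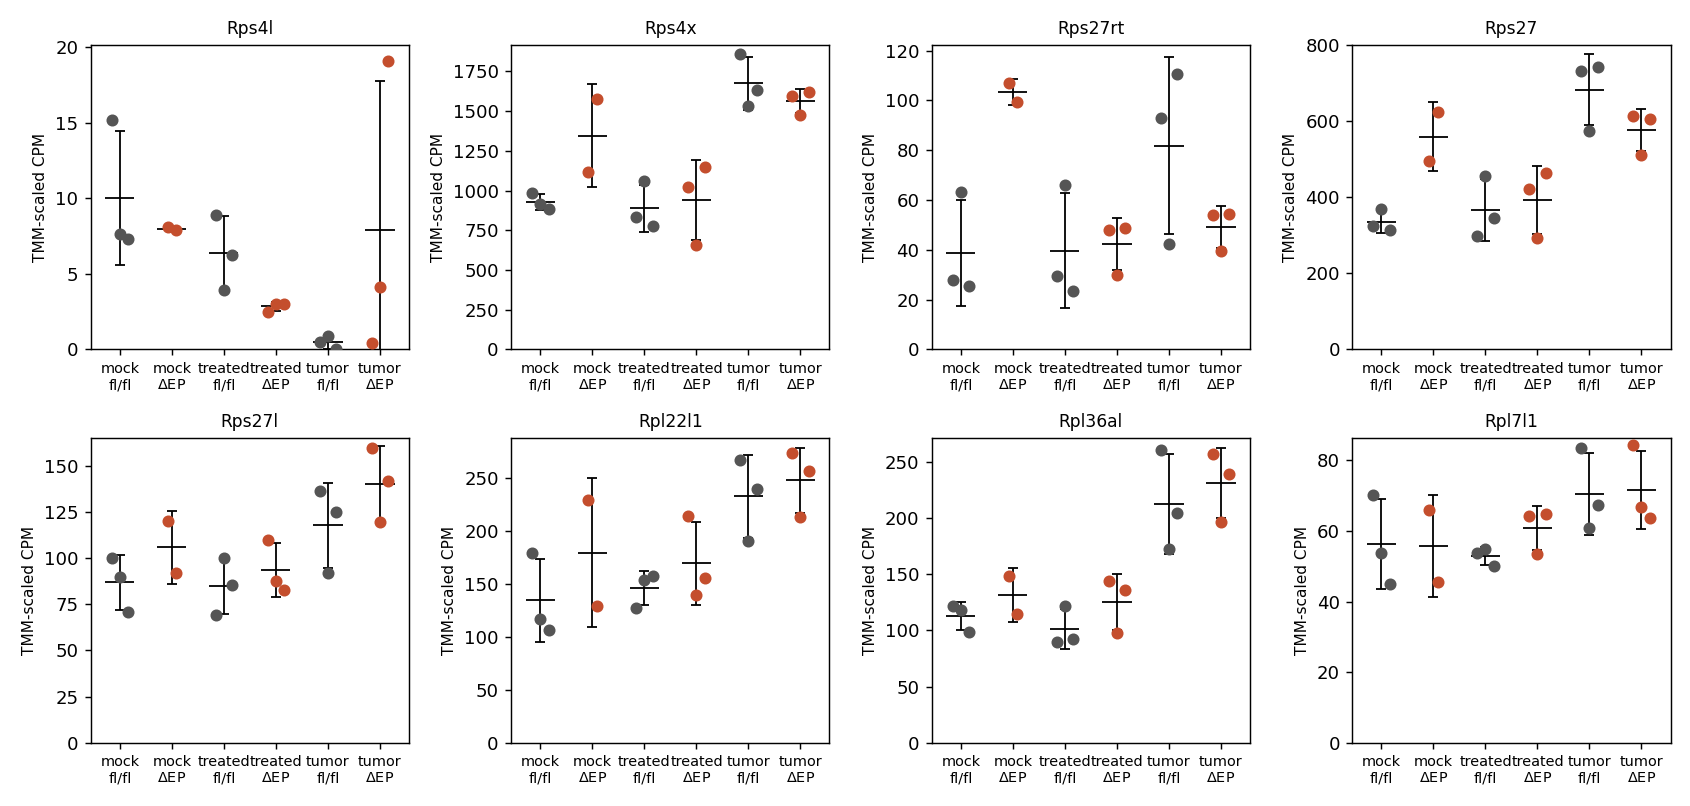
CPM per library of Rps4l, the copy Rps27rt, 4 expressed paralogs and the core genes Rps4x and Rps27 in the 6 groups, with the group mean as a bar and the SD as whiskers cut at 0. Rps4l lies at 0 to 0.913 CPM in fl/fl papillomas and spreads from 0.446 to 19.1 CPM in ΔEP papillomas.

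Genes that work with the ribosomal proteins were read from lists written with results of these data known. Fau and Rack1, ribosomal proteins with other names, rose in fl/fl papillomas against treated skin by log2 0.60 and 0.71, and were at 0.55 and 0.53 in ΔEP papillomas, where neither passed (adjusted p = 0.063 and 0.073). Of 19 other mRNAs known to start with a pyrimidine tract, such as translation factors, 14 rose in fl/fl (median 0.74) and 13 in ΔEP papillomas (median 0.67). Eef2 rose by 0.72 and 0.91. Of 51 ribosome biogenesis genes 19 rose in fl/fl (median 0.61), and 12 rose and 2 fell in ΔEP papillomas (median 0.33). Among them the nucleolar proteins Npm1 and Ncl rose by 1.10 and 1.22 in fl/fl and by 1.12 and 1.28 in ΔEP mice, examples chosen after their values were seen like the next. Of 78 mitochondrial ribosomal protein genes, which serve a separate ribosome, 5 rose in fl/fl (median 0.30) and 3 in ΔEP papillomas (median 0.14). These counts stand beside the 12.5% and 17.6% of all genes that rose.

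Regulators of the family did not move in one direction. Of 16, 2 rose and 4 fell in fl/fl papillomas against treated skin (median -0.18), and 5 rose and 2 fell in ΔEP papillomas (median -0.12). Myc read 136, 170 and 90 CPM in treated fl/fl skin and 170, 161 and 97.7 CPM in papillomas (log2 0.08, adjusted p = 0.84). In ΔEP mice Myc was at -0.49 (adjusted p = 0.098). Its relatives Mycl and Mycn fell in both genotypes, Mycl from 94.4, 85.2 and 112 CPM to 6.0, 3.65 and 7.84 CPM in fl/fl mice, and Mxd1, which opposes Myc, rose by 1.96 and 2.52. Larp1 and Eif4ebp1, which act on the pyrimidine tract mRNAs and on their translation under mTOR, rose in ΔEP papillomas by 0.94 and 0.96. None of the 16 regulators passed between genotypes in papillomas, where 0.0284% of all genes did. In the interaction against treated skin none passed either, where 0.0118% of all genes did.

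Markers of other cells moved with tissue beside these results. The sum of 6 fibroblast markers was 375 to 1673 CPM in skin and 30.3 to 385 CPM in papillomas, and that of 4 melanocyte markers 38.4 to 324 CPM in skin and 8.8 to 35.2 CPM in papillomas. The fibroblast marker Dcn alone read 230 to 840 CPM in treated ΔEP skin and 0.189 to 2.90 CPM in ΔEP papillomas. Against treated skin the 6 fibroblast markers ran from log2 -8.17 to 0.27 in ΔEP papillomas (median -0.0118). In fl/fl papillomas they ran from -5.25 to 0.83 (median -0.85). Against mock skin all 6 were lower, at -5.68 to -0.70 in fl/fl and -8.32 to -0.0337 in ΔEP papillomas. The 9 leukocyte rows (8 genes) summed to 12.7 to 38.5 CPM in all groups but treated ΔEP skin and ΔEP papillomas. Those gave 15.9 to 212 CPM and 69.7 to 107 CPM. Most of this came from Cd74 (7.51 to 172 CPM and 54.7 to 83.4 CPM) and H2-Ab1 (3.22 to 35.0 CPM and 8.33 to 16.5 CPM). Every other leukocyte row was at most 4.68 CPM in those groups. Ptprc, which defines leukocytes, was at 0 in both mock ΔEP libraries and at most 1.5 CPM anywhere, and 4 endothelial markers summed to 8.6 to 39.5 CPM. Keratinocyte markers summed to 3850 to 24072 CPM in mock fl/fl, 3821 to 22201 CPM in mock ΔEP, 5804 to 14441 CPM in treated fl/fl, 4999 to 21782 CPM in treated ΔEP, 9790 to 33998 CPM in fl/fl and 27497 to 28367 CPM in ΔEP papillomas. Single keratinocyte markers moved both ways, from log2 -2.38 to 1.58 in fl/fl papillomas against mock skin (median -0.28). In ΔEP papillomas against mock skin they ran from -2.29 to 2.11 (median 1.06). Krt10, for example, read 419 to 4399 CPM in mock fl/fl skin and 252 to 928 CPM in fl/fl papillomas. The part of these shifts in the family's level was not tested.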

How the data were processed

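RNA-seq counts of 18 samples were used. Per the labels, total RNA was made into libraries with the Ovation SoLo kit. The submitters' processing notes name mm10, Trimmomatic 0.36, STAR 2.5.3, HTSeq 0.9.1 and DESeq2, and the use of strand is not given in the sources used here. The authors deposited whole-number counts per gene, not normalized. No column lay outside the design. Depth limits precision most for low rows, and counts cover counting error only.

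From these counts, edgeR 4.0.16 (R 4.3.3) was fitted to the libraries of the groups compared, with filterByExpr, TMM scaling and the two-sided quasi-likelihood F test. Calls were Benjamini-Hochberg adjusted p under 0.05 over all genes tested, with no fold limit. CPM values used TMM over all 17 libraries, and fold changes come from the fit of the groups compared, so both differ slightly. Columns with identical counts were counted once. DESeq2 1.42.0, RLE scaling, library totals, other filters, a single fit, a replicate block, removal of ribosomal RNA rows, a 2-fold limit and leaving out each library were alternatives. The fit was tested on simulated data. Members, lists and tests were chosen with earlier results of these data known. Genes named were, in each comparison, called members with the smallest p and no overlap (up to 5), members farthest from the family median, the highest and lowest per kb, paralogs with partners, stalk genes, Rpsa, Rpl5, Rpl11 and Rps6. Promoters came from RefSeq GRCm38.p6, and marker lists covered keratinocytes, leukocytes, fibroblasts, endothelium and melanocytes. Some genes are not reported here.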

Additional observations from a re-analysis of the deposited data

Results flagged for a closer look

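Rps3a2 lay on opposite sides of mock skin in the papillomas of the 2 genotypes. In every fl/fl papilloma library it lay above every fl/fl mock library (20.5 to 39.0 CPM against 9.64 to 18.2 CPM, log2 1.14), and in every ΔEP papilloma library it lay below both ΔEP mock libraries (14.1 to 20.1 CPM against 22.3 and 22.9 CPM, log2 -0.58). What drew attention was this opposite order of the libraries, which is not itself a test. The difference tested as an interaction was -1.71 on the log2 scale with an adjusted p of 0.535 in edgeR's quasi-likelihood test, so it did not pass. The other copy rows had the same pair of signs: all 6 were above 0 in fl/fl (log2 0.83 to 1.14) and all 6 lay below mock skin without overlap in ΔEP mice (-1.16 to -0.58), where Rps3a2 had the value nearest to 0, but only Rps3a2 also lay above without overlap in fl/fl mice. Of the 6, only Rps27rt passed, in ΔEP mice. Their interactions were -2.21 to -1.47, and only Rps27rt passed there, in the fit without the low-count filter (adjusted p = 0.037). Rps3a2 shares 76.7% of its 50-base windows with Rps3a1, and neither genotype's own difference passed the test. Per 1000 core counts, all copy rows together held 6.84 and 5.73 in mock ΔEP skin and 2.43 to 2.92 in ΔEP papillomas. In fl/fl mice they held 4.33, 2.49 and 5.62 in papillomas and 2.55, 6.67 and 2.81 in mock skin. The part of these differences between whole libraries in the opposite signs was not tested.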

How the results depend on the processing

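Alternatives moved the counts of members called far more than their median. The share of all genes called moved too. DESeq2 called 16.1% in fl/fl papillomas against mock skin, where the main fit called 4.11%, and 20.4% against 14.4% in ΔEP mice. Beyond DESeq2 and library totals this share is mostly not given here or in the results above. Such counts, also those without 1 library, cannot tell a change of the members from a looser or stricter test. Of values that answer a comparison 303 stayed within their limits and 58 moved. In fl/fl papillomas against mock skin the 2 calls became 70 with DESeq2, 1 with library totals alone, 5 without the low-count filter, 80 in a single fit of 6 groups and 0 with the replicate block, and the median 0.86 became 0.47 with totals. Against treated skin the 75 calls became 9 with totals, 11 with the block and 13 with a 2-fold limit, and the median 0.85 became 0.35 with totals. In ΔEP papillomas against mock skin the 1 call became 5 with DESeq2, 3 with totals, 6 in the single fit, 0 with the block and 19 with identical columns taken as separate, and the median 0.26 became 0.0261 with totals and 0.38 without the filter. Against treated skin the 49 calls became 0 with totals, 31 without ribosomal RNA rows and 0 with the 2-fold limit, 70 with the block, and the median 0.62 became 0.18 with totals. In mock skin ΔEP against fl/fl gave 2 calls with the block and a median of 0.34 with totals, and in papillomas 1 call and a median of 0.0151 without the filter. The interaction against mock skin had 2 calls (Rps4l and Rps27rt) and a median of -0.42 without the filter, and that against treated skin 1 call with DESeq2 and 1 without the filter, Rps4l both times. Beyond the scaling, the cause was not tested.

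Leaving out each library gave 0 to 68 calls in fl/fl papillomas against mock skin (68 without mock replicate 1), 0 to 74 against treated skin (0 without treated replicate 1), with medians of 0.76 to 0.96, 0 to 9 calls and medians of 0.20 to 0.47 in ΔEP papillomas against mock skin (a lone mock library is assumed to vary like papillomas), 2 to 64 calls and medians of 0.47 to 0.75 against treated skin, 0 to 1 calls in fl/fl treated against mock skin, and medians of 0.37 to 0.64 between genotypes in mock skin. Without ribosomal RNA rows the share of counts was 5.66% in mock ΔEP skin, 4.62% in treated fl/fl skin, 6.19% in fl/fl papillomas and 5.43% in ΔEP papillomas. Per TMM-scaled total, an alternative chosen after seeing the data, it was 3.42% in treated fl/fl skin, 6.25% in fl/fl and 6.14% in ΔEP papillomas. With totals alone Rps27l (-0.0561) and Rpl7l1 (-0.12) in fl/fl mice and Rpl7l1 (-0.30), Rplp2 (-0.0427), Rps3a2 (-0.12) and Rps28 (-0.18) in ΔEP mice turned to lower in papillomas than in treated skin, and Rps4l in ΔEP mice ran from -0.33 without papilloma replicate 3 to 1.95. Of values of single genes 644 kept direction and side of the threshold, 163 lost the call, 26 gained it and 7 turned.

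Replicate numbers gave no pairing common to all comparisons. Correlations of same-numbered libraries' deviations ran from -0.55 (treated) to 0.78 (mock, between genotypes). Comparisons with papillomas gave -0.30 to 0.25. In mock skin both pairs between genotypes were positive (0.78 and 0.57), with 2 ΔEP libraries, and there the block gave 2 calls. Whether mock libraries shared a batch was not tested. No labels tie a number to a mouse, so the block was used only as an alternative.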
